A study of Mus musculus with 18 samples.

Results

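The step from day 3 to day 5 in WT primordial germ cell-like cells (PGCLC) was measured by sequencing polyadenylated RNA in 6 of the 18 libraries of the series, 3 for each day. The members are the WT PGCLC libraries of both days, chosen by their labels and compared with no other library in the fit. All 6 come from mouse SGET embryonic stem cells of the mixed strain B6CBA/129, which report Stella (the Dppa3 gene) and Esg1 (the Dppa5a gene) by fluorescence. The stem cells were kept in 2i/L medium on gelatin, turned into epiblast-like cells (EpiLC) with activin A and bFGF on fibronectin, and induced with BMP4, LIF, SCF, BMP8a and EGF. Cells positive for the Stella reporter and low for the Esg1 reporter (SG+ETlow) were sorted after 3 or 5 days, by the same gate on both days. The late libraries are called day 5 here, from their titles and their time label, although their descriptions call them d6. The WT line is a single cell line, and nothing in the labels says that replicates 1 to 3 were separate cultures. The p-values therefore measure only the spread between these samples, which may be technical. On chromosome 8, however, small deviations followed the replicate number on both days, as given at the end, and the fit has no replicate block. Both reporter genes are tied to the gate, so nothing is read from Dppa3 and Dppa5a about the sorted population. Because the libraries are bulk RNA, fewer cells expressing a gene and less RNA per cell cannot be told apart.

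Primordial germ cells are the founders of sperm and eggs. In the mouse they arise from the epiblast under BMP signalling, through a small set of transcription factors that includes Prdm1, Prdm14 and Tfap2c, and they keep or regain much of the pluripotency network. As they mature they lower DNA methylation over much of the genome, and genes of later germ cell life, such as Dazl and genes of the piRNA pathway and of meiosis, become active. PGCLC model the early part of this course in culture, without a gonad.

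Library totals ran from 4149569 to 5282191 counts (median 4645905.5). The days separated clearly: the first principal component, with 62.4% of the variance, placed day 3 libraries between -22.3 and -18.6 and day 5 libraries between 18.5 and 20.8. Within a day the counts of any pair of libraries lay near sampling noise, with a chi-square of 1.16 to 1.804 for each degree of freedom, and between days it was 4.19 to 5.99. At a common depth of 4149569 counts, 14442 to 14560 genes had a count at day 3 and 14763 to 14831 at day 5. Mitochondrially encoded genes took 1.18% to 1.27% of counts. The labelled cell type was checked against its markers, beside the unsorted WT EpiLC that precede it. Prdm14, a transcription factor that specifies germ cells, was at 61.9 to 69.1 CPM at day 3 and 63.3 to 66.2 CPM at day 5, against 1.21 to 1.54 CPM in EpiLC. Kit, the receptor of SCF on germ cells, was at 232 to 249 CPM at day 3 and 225 to 230.2 CPM at day 5, against 17.7 to 24.3 CPM in EpiLC. Nanos3, an RNA-binding protein of primordial germ cells, was present at 1.61 to 2.68 CPM at day 3 and 2.82 to 3.04 CPM at day 5 and at 0 in EpiLC. None of these 3 genes passed the test between days. Esrrb, the nuclear receptor knocked out elsewhere in the series, was at 632, 597 and 619 CPM at day 3 and 594, 605 and 571 CPM at day 5 in WT cells and did not pass either (log2 fold change -0.06 ± 0.04, adjusted p = 0.301).

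Many genes changed by a little and few changed by much. Of 11922 tested genes, 3678 (30.9%) passed an edgeR quasi-likelihood test at a Benjamini-Hochberg adjusted p under 0.05. Of all tested genes 15.1% (1804) were called higher at day 5 and 15.7% (1874) lower. These 2 shares are the background against which every list below is read. The median absolute log2 fold change of the called genes was 0.36. Only 232 genes (1.95% of those tested) were called with a log2 fold change of at least 1, and 130 (1.09%) with one of -1 or below. All 3 libraries of a day lay above all 3 of the other for 2484 tested genes higher at day 5 (20.8%) and 2541 lower (21.3%), and this held for 3426 of the called genes (93.1%). The number of calls rests on the small spread between WT libraries. When all 18 libraries shared the estimate of spread, KO lines included, 99 genes were called, 97 of them also called here, and DESeq2 on the 6 libraries called 2121. In simulated data made from these libraries, 50% of genes changed 1.25-fold, 92% of genes changed 1.5-fold and 98% of genes changed 2-fold were recovered. Every simulated gene had the same common dispersion, and the changed genes, 50 for each fold, were drawn from those above a minimum CPM. The recovery therefore holds for these settings and does not give that in the real libraries, where spread may differ between genes. Levels below are CPM, computed as the deposited CPM are but with library totals adjusted by TMM unless stated (for EpiLC and summed levels, by TMM over all 18 libraries), and differences are log2 fold changes of day 5 against day 3 ± SE (n = 3 against 3), with adjusted p over all tested genes. The plot of fold change against level shows the whole step.

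**Figure D1:**
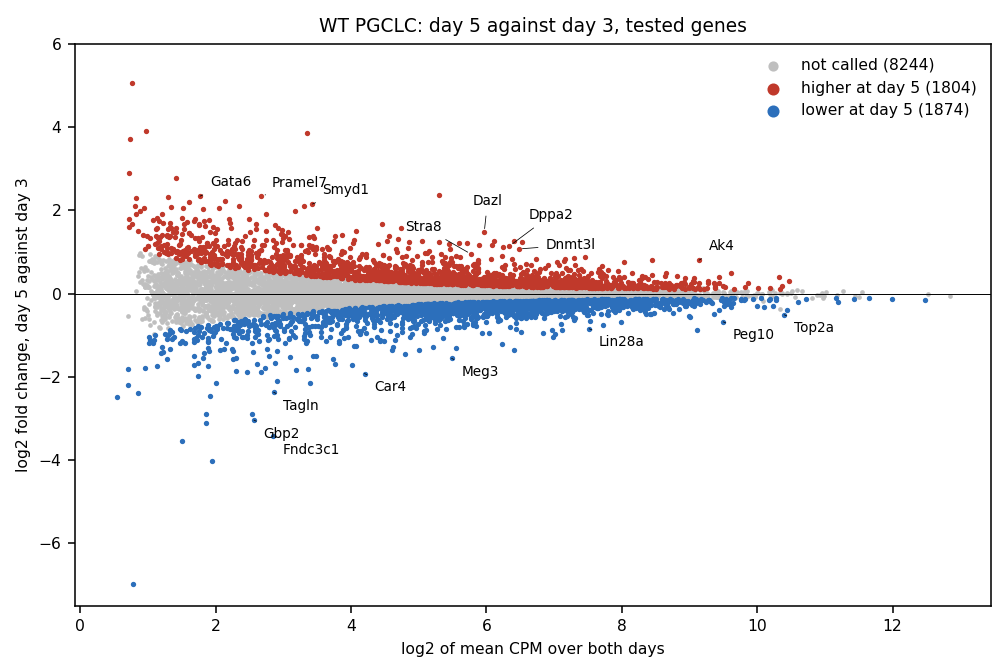
Each point is 1 of 11922 tested genes. The horizontal axis is the log2 of its mean CPM over both days and the vertical axis its log2 fold change, day 5 against day 3, in WT PGCLC. Red genes (1804) were called higher and blue genes (1874) lower. The called genes lie close to 0 at high levels, where Peg10 (-0.68) and Ak4 (0.80) stand out, and spread widely at low levels, where Gbp2 (-3.04) and Gata6 (2.34) lie.

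Genes of later germ cell life rose more often than they fell. Of 48 listed genes of late germ cells and meiosis, 36 could be tested, 16 were called higher and 5 lower, and the median log2 fold change was 0.26, against 0.0026 over all tested genes. The summed level of the list was 1000 to 1041 CPM at day 3 and 1139 to 1198 CPM at day 5. In EpiLC it was 1233 to 1280 CPM, so the list as a sum did not rise above the EpiLC level. Dazl (ENSMUSG00000010592, chr17:50279395-50293636, GRCm38), an RNA-binding protein required for germ cell development, was at 35.8, 32.5 and 32 CPM at day 3 and 95.5, 102 and 77.9 CPM at day 5. Every day 5 library was far above every day 3 library, 2.77-fold on average (log2 fold change 1.47 ± 0.09, adjusted p = 1.07e-17). Stra8, a gene that licenses entry into meiosis, was at 39.7, 41.1 and 31 CPM at day 3 and 80.1, 66.4 and 70.2 CPM at day 5. The groups did not overlap (log2 fold change 0.95 ± 0.09, adjusted p = 1.00e-11), whereas EpiLC were at 8.47 to 11.1 CPM. Gtsf1, a zinc finger protein of the piRNA pathway, was lower in level, at 0.731, 1.72 and 1.61 CPM at day 3 and 4.06, 4.66 and 4.69 CPM at day 5 (log2 fold change 1.66 ± 0.33, adjusted p = 9.81e-05). Tex101, a germ cell surface glycoprotein, went from 2.18 ± 0.70 to 4.86 ± 0.878 CPM (log2 fold change 1.13 ± 0.30, adjusted p = 0.00266). Not all genes of this group rose. Tdrd5, a Tudor domain protein of the piRNA pathway, was at 19, 20.8 and 18.4 CPM at day 3 and 8.72, 9.31 and 8.45 CPM at day 5, a fall that left no overlap (log2 fold change -1.14 ± 0.15, adjusted p = 3.59e-08). Ddx4, the germ cell RNA helicase, was at 28, 30 and 29.2 CPM at day 3 and 20.5, 23.7 and 30 CPM at day 5 and did not pass (log2 fold change -0.25 ± 0.11, adjusted p = 0.0922). Without day 5 replicate 3 it passed (log2 fold change -0.40, adjusted p = 0.00848). Sycp3, a component of the synaptonemal complex, did not pass either (log2 fold change -0.24 ± 0.14, adjusted p = 0.19). Stra8, Taf7l and Fkbp6 were chosen for the text after their values were seen. The number called higher was 12 to 16 when any 1 library was left out, and 10 with DESeq2. The number called lower was 8 without day 5 replicate 3.

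The promoters of these genes were searched for CACGTG, the E-box that Mga and Max, repressors of germ cell genes, are known to bind and that reads the same on both strands. Promoters are those of RefSeq (GRCm38.p6), and the search covered 250 bases before each start. The motif lay in the window of 7 of 15 genes of the list that were called higher and had a promoter there (46.7%), and of 8 of 17 that were tested and not called higher (47.1%). It lay before 10.4% of the 9454 tested genes that had a promoter, and in 6.02% of all 32848 promoter windows. Counted by window, it lay in 10 of 18 windows (55.6%) of the genes called higher and in 9 of 25 (36%) of the others. The 10 windows belong to 7 genes, because Fkbp6, Hormad1 and Stk31 have overlapping windows that hold the same copies of the motif. Windows are therefore not separate cases, and the difference between these shares was not tested. The stretches around it are shown for a subunit of a germ cell form of TFIID, Taf7l (chrX:134476514-134476559, minus strand), and for Fkbp6, a chaperone of the piRNA pathway (chr5:135350056-135350165, minus strand), because both genes rose and hold it. Capitals mark the motif.
Taf7l: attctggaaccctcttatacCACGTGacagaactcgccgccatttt
Fkbp6: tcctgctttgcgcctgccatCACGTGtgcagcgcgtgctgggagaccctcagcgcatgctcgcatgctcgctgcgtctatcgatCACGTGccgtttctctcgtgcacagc
Fkbp6 holds 2 copies in this stretch. Taf7l was at 3.17, 3.82 and 5.52 CPM at day 3 and 6.69, 8.3 and 9.62 CPM at day 5 (log2 fold change 0.96 ± 0.23, adjusted p = 9.05e-04). Fkbp6 was at 17.3, 16 and 15.2 CPM at day 3 and 25.8, 23.9 and 28.9 CPM at day 5 (log2 fold change 0.69 ± 0.12, adjusted p = 1.49e-05). Neither gene's groups overlapped.

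In contrast, most called genes of germ cell specification fell. Of 15 listed genes 13 could be tested, 3 were called higher and 6 lower, with a median log2 fold change of -0.31. Tfap2c, the AP-2 transcription factor of early germ cells, was at 313, 308 and 321 CPM at day 3 and 196, 197 and 195 CPM at day 5. Its libraries of a day agreed closely and the days did not overlap (log2 fold change -0.68 ± 0.05, adjusted p = 1.90e-15). Prdm1, the repressor that starts the germ cell program, was at 43.8, 35.1 and 48.5 CPM at day 3 and 27.6, 30.4 and 26.3 CPM at day 5 (log2 fold change -0.58 ± 0.10, adjusted p = 2.37e-05). Lin28a, an RNA-binding protein that blocks let-7 maturation, fell further than either, being at 238, 226 and 244 CPM at day 3 and 132, 132 and 129.6 CPM at day 5 (log2 fold change -0.84 ± 0.05, adjusted p = 3.62e-17). Its relative Lin28b was also lower (log2 fold change -0.49 ± 0.13, adjusted p = 0.00389). Dnd1, which guards germ cell mRNAs, was at 24.8, 23.1 and 25.1 CPM at day 3 and 14, 16.6 and 16.7 CPM at day 5 (log2 fold change -0.63 ± 0.12, adjusted p = 8.32e-05). Rhox9, a homeobox gene of the X-linked Rhox cluster, rose from 46.7 ± 1.32 to 71.4 ± 7.16 CPM (log2 fold change 0.60 ± 0.08, adjusted p = 7.88e-08), and reads of near-identical Rhox copies may be shared with it. At day 5 Tfap2c and Prdm1 were still above their EpiLC levels of 8.22 to 11.4 CPM and 2.83 to 3.61 CPM. Lin28a was already below its EpiLC level, 784 to 861 CPM, at day 3.

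**Figure D2:**
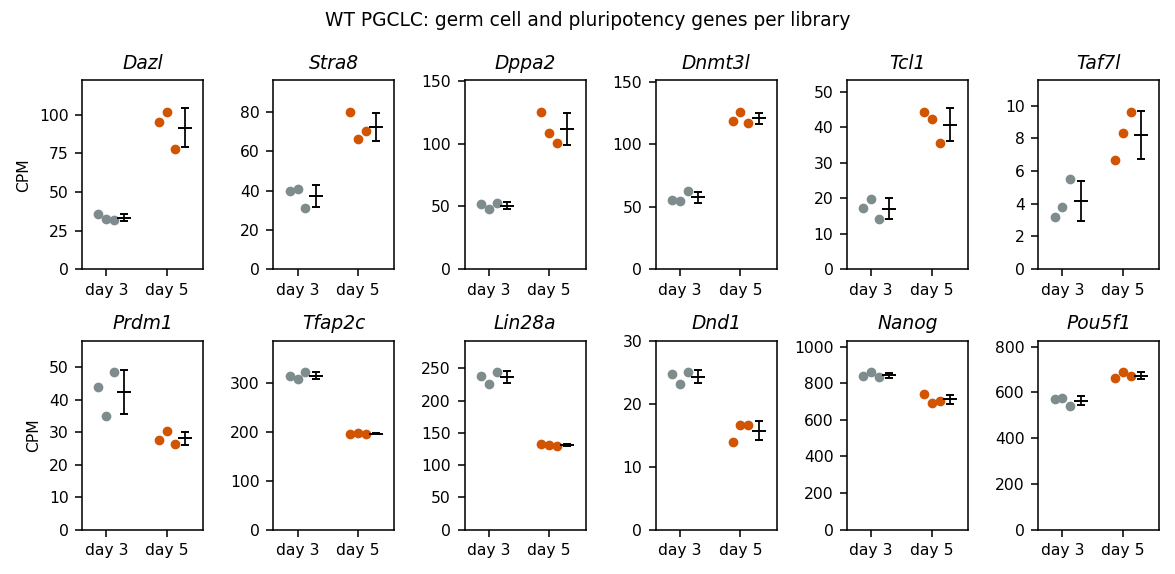
Each panel shows CPM of 1 gene in the 3 day 3 libraries (grey) and the 3 day 5 libraries (orange) of WT PGCLC, with the mean ± SD as a black bar beside them. The vertical axes start at 0 and differ between panels. In every panel the 2 days do not overlap. Dazl, Stra8, Dppa2, Dnmt3l, Tcl1, Taf7l and Pou5f1 are higher at day 5, and Prdm1, Tfap2c, Lin28a, Dnd1 and Nanog lower.

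Genes of naive pluripotency moved in both directions, more of them up. All 25 listed genes were tested, 13 were called higher and 4 lower (median 0.22). The rises were the larger changes. Tcl1, a co-activator of Akt, was at 17.3, 19.9 and 14 CPM at day 3 and 44.4, 42.3 and 35.7 CPM at day 5 (log2 fold change 1.25 ± 0.12, adjusted p = 5.18e-12). Dppa2, a chromatin protein of pluripotent and germ cells, was at 51.6, 47.9 and 52.7 CPM at day 3 and 126, 109 and 100.5 CPM at day 5 (log2 fold change 1.14 ± 0.08, adjusted p = 3.09e-16). Neither gene's days overlapped. Mitf, a basic helix-loop-helix factor, went from 10.1 ± 1.48 to 21.6 ± 1.36 CPM (log2 fold change 1.09 ± 0.14, adjusted p = 4.53e-08). Tbx3, a T-box factor that promotes self-renewal, was at 115, 91.1 and 106 CPM at day 3 and 186, 186 and 174 CPM at day 5 (log2 fold change 0.82 ± 0.06, adjusted p = 2.44e-14). It was almost absent from EpiLC (0.514 to 1.21 CPM). Klf4 and Klf2, Kruppel-like factors of the naive network, were among the genes that fell. Klf4 was at 153, 130.0 and 125 CPM at day 3 and 98.2, 95.6 and 96 CPM at day 5 (log2 fold change -0.49 ± 0.07, adjusted p = 8.87e-08). Klf2 changed less, from 439.7 ± 5.79 to 373 ± 10.9 CPM (log2 fold change -0.24 ± 0.04, adjusted p = 4.17e-05). Klf5 moved the other way, from 79.4 ± 5.78 to 96.5 ± 3.52 CPM (log2 fold change 0.29 ± 0.07, adjusted p = 9.95e-04). Tfcp2l1 was at 418 to 442 CPM at day 3 and 394 to 398 CPM at day 5 and did not pass (log2 fold change -0.11 ± 0.04, adjusted p = 0.0621).

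The core factors shared by naive and primed pluripotency changed by small amounts in different directions. All 17 listed genes were tested, 6 were called higher and 9 lower (median -0.13). Pou5f1 was at 570.2, 577 and 540.0 CPM at day 3 and 661, 688 and 672 CPM at day 5, a 1.20-fold rise without overlap (log2 fold change 0.26 ± 0.04, adjusted p = 4.67e-06). Nanog was at 837, 860.0 and 832 CPM at day 3 and 739, 692 and 704 CPM at day 5, lower at day 5 in every library (log2 fold change -0.24 ± 0.04, adjusted p = 9.32e-06). Sox2 was at 1056, 991 and 1036 CPM at day 3 and 939, 914 and 956 CPM at day 5 (log2 fold change -0.13 ± 0.04, adjusted p = 0.00981). It did not pass without day 3 replicate 1 (adjusted p = 0.0645). The number called higher was 3 without day 3 replicate 3 or day 5 replicate 1, and 3 with DESeq2. Of the formative and primed epiblast list 19 of 23 genes could be tested, 5 were higher and 7 lower (median -0.05), or 4 lower with DESeq2. Foxp1, a forkhead factor, was at 29.7, 26.5 and 24.6 CPM at day 3 and 11.2, 12.1 and 13.8 CPM at day 5 (log2 fold change -1.12 ± 0.13, adjusted p = 1.97e-09). Mycn fell without overlap, from 172 ± 6.68 to 87.7 ± 4.38 CPM (log2 fold change -0.97 ± 0.06, adjusted p = 3.07e-17), while its relative Myc rose from 10.1 ± 2.13 to 17.1 ± 2.34 CPM (log2 fold change 0.75 ± 0.16, adjusted p = 2.03e-04). Otx2, which drives the exit toward epiblast fate, was at 36.3, 43.2 and 46.5 CPM at day 3 and 34.7, 30.6 and 30 CPM at day 5 (log2 fold change -0.40 ± 0.10, adjusted p = 0.00122). Fgf5, a marker of formative epiblast, had only 15 counts at day 3 and 3 at day 5 over the 3 libraries and was not tested.

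Among the enzymes that write, keep and remove DNA methylation, the cofactor of the de novo enzymes rose most. Dnmt3l was at 55, 54.6 and 62.8 CPM at day 3 and 119, 126 and 117 CPM at day 5 (log2 fold change 1.07 ± 0.07, adjusted p = 1.13e-16), still below EpiLC (305 to 317 CPM). Dnmt3a, a de novo methyltransferase, rose from 89.9 ± 3.86 to 116 ± 9.95 CPM (log2 fold change 0.38 ± 0.07, adjusted p = 1.67e-05), and Dnmt3b did not pass (log2 fold change -0.05 ± 0.06, adjusted p = 0.573). Dnmt1, the maintenance methyltransferase, was at 573, 572 and 572 CPM at day 3 and 486, 488 and 454 CPM at day 5 and fell without overlap (log2 fold change -0.26 ± 0.04, adjusted p = 4.58e-06). Uhrf1 moved the other way and was called higher, but not with DESeq2 (log2 fold change 0.16, adjusted p = 0.0563). Nor did it pass without day 3 replicate 2 or without day 5 replicate 1. The dioxygenases that oxidise methylcytosine differed in direction. Tet1 was lower (log2 fold change -0.19 ± 0.05, adjusted p = 0.00156), whereas Tet2 was higher (log2 fold change 0.28 ± 0.06, adjusted p = 2.26e-04). Zfp57, a zinc finger protein that protects methylation at imprinted regions, was at 164, 152 and 172 CPM at day 3 and 263, 271 and 229 CPM at day 5 (log2 fold change 0.65 ± 0.06, adjusted p = 1.09e-12). Of 23 genes of the DNA methylation machinery 21 were tested, with 7 called higher and 4 lower (median 0.05).

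Polycomb genes also divided. Of 36 listed genes 34 were tested, 9 were higher and 7 lower (median -0.02). Aebp2, an accessory subunit of the complex that methylates H3K27, was at 192, 194 and 198 CPM at day 3 and 331, 329 and 323 CPM at day 5. Its libraries of a day were within a few CPM of each other and the days lay far apart (log2 fold change 0.75 ± 0.05, adjusted p = 6.93e-17). Bmi1, a subunit of the complex that ubiquitylates H2A, went from 8.3 ± 1.4 to 17.1 ± 0.274 CPM (log2 fold change 1.06 ± 0.16, adjusted p = 6.45e-07). The H3K9 methylation list had 2 genes higher and 4 lower of 19 tested, a share called of 31.6%, close to the 30.9% of all genes. None was higher without day 3 replicate 2. Cbx5, which encodes HP1 alpha, was at 385, 401 and 409.6 CPM at day 3 and 290.5, 286 and 281 CPM at day 5 (log2 fold change -0.48 ± 0.05, adjusted p = 1.75e-11). Suv39h1, a methyltransferase for H3K9, fell from 51.4 ± 6.78 to 35.7 ± 3.62 CPM (log2 fold change -0.53 ± 0.09, adjusted p = 1.86e-05), and Ehmt1, a subunit of another, from 139 ± 3.85 to 112 ± 4.67 CPM (log2 fold change -0.31 ± 0.06, adjusted p = 4.91e-05).

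Targets of the inducing signals moved differently from one pathway to the next. Among BMP response genes 2 were called higher and 6 lower of 13 tested (17 listed, median -0.20). Id2, an inhibitor of basic helix-loop-helix factors, went from 44.4 ± 3.41 to 24.3 ± 5.5 CPM (log2 fold change -0.88 ± 0.11, adjusted p = 1.41e-08). Id3, of the same family, was at 42.9, 34.8 and 37.3 CPM at day 3 and 20.5, 25.5 and 19 CPM at day 5 (log2 fold change -0.80 ± 0.11, adjusted p = 1.38e-07). Msx2, a homeobox target, was at 22.9, 24.8 and 26 CPM at day 3 and 12.2, 13.4 and 12.7 CPM at day 5 (log2 fold change -0.95 ± 0.13, adjusted p = 8.48e-08). The days did not overlap in any of the 3, and each remained above its EpiLC level, which for Msx2 was 0. Hand1, another BMP target and a factor of mesoderm and trophoblast, went the other way, from 6.79 ± 2.21 to 13.8 ± 2.13 CPM (log2 fold change 1.0 ± 0.19, adjusted p = 3.96e-05). Of 9 tested WNT response genes 4 were called lower and 1 higher (18 listed, median -0.06), and 2 were higher without day 3 replicate 1 or day 5 replicate 3. Rnf43, a ligase that removes WNT receptors, was at 4.38, 4.96 and 5.52 CPM at day 3 and 1.42, 1.62 and 1.41 CPM at day 5 (log2 fold change -1.72 ± 0.31, adjusted p = 2.15e-05). Axin2, the feedback scaffold of the pathway, was at 22.4, 24.6 and 23 CPM at day 3 and 13, 11.7 and 11 CPM at day 5 (log2 fold change -0.97 ± 0.13, adjusted p = 1.00e-07). Notum, a secreted WNT inhibitor, was the gene that rose, from 5.72 ± 1.59 to 9.92 ± 1.95 CPM (log2 fold change 0.82 ± 0.21, adjusted p = 0.00166). Wls, which carries WNT ligands to the cell surface, was among the genes that fell most in the whole table (log2 fold change -1.99 ± 0.34, adjusted p = 6.27e-06).

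Nodal and activin response genes were called only upward, 7 of 13 tested (17 listed, median 0.12), though the count was 4 without day 3 replicate 3 or day 5 replicate 2 and 4 with DESeq2. Inhbb, a subunit of activin B, was at 8.04, 8.59 and 7.13 CPM at day 3 and 23.9, 19.6 and 20.2 CPM at day 5 (log2 fold change 1.42 ± 0.15, adjusted p = 3.16e-10), while EpiLC held at most 0.726 CPM. Pmepa1, a feedback inhibitor of SMAD signalling, went from 5.6 ± 1.53 to 11.1 ± 1.7 CPM (log2 fold change 1.01 ± 0.20, adjusted p = 8.83e-05). Of FGF and ERK response genes 7 were higher and 4 lower of 21 tested (23 listed, median 0.02). The number lower was 1 without day 3 replicate 3, 2 without day 3 replicate 2 or day 5 replicate 1, and 1 with DESeq2. Etv4, an ETS factor induced by FGF, was at 43.4, 34.6 and 32 CPM at day 3 and 90.3, 84.8 and 70.4 CPM at day 5 (log2 fold change 1.17 ± 0.09, adjusted p = 1.21e-12). Spry4, a feedback inhibitor of the pathway, was at 26.5, 24.4 and 26.9 CPM at day 3 and 47.9, 57.5 and 37.1 CPM at day 5 (log2 fold change 0.89 ± 0.12, adjusted p = 2.56e-07). Both were closer at day 5 than at day 3 to their EpiLC levels of 103 to 117 CPM and 52.2 to 60.5 CPM. Of 17 tested LIF and STAT3 response genes 4 were higher and 4 lower. Pim1, a kinase induced by STAT3, went from 242 ± 16.1 to 172 ± 15 CPM (log2 fold change -0.49 ± 0.06, adjusted p = 2.08e-09), and Il6st, which encodes the shared receptor subunit gp130, from 137 ± 4.7 to 100.3 ± 8.5 CPM (log2 fold change -0.45 ± 0.06, adjusted p = 2.20e-07).

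**Figure D3:**
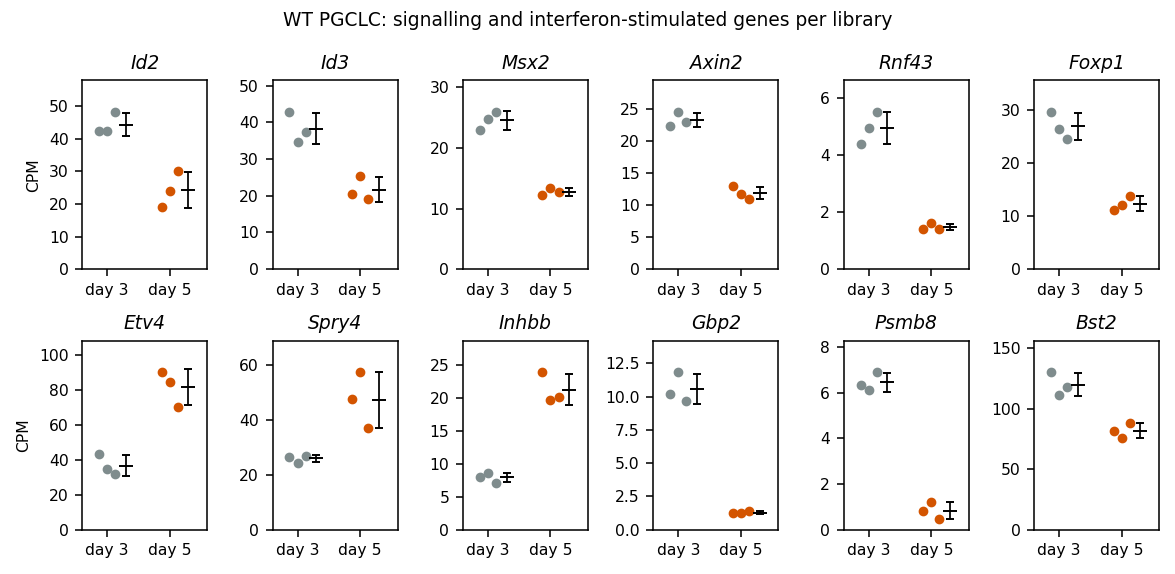
Each panel shows CPM of 1 gene in the 3 day 3 libraries (grey) and the 3 day 5 libraries (orange) of WT PGCLC, with the mean ± SD as a black bar beside them. The vertical axes start at 0 and differ between panels. Etv4, Spry4 and Inhbb are higher at day 5 and the other 9 genes lower, with no overlap between days in any panel.

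Interferon-stimulated genes were called downward. Of 35 listed genes 24 were tested, none was called higher and 14 were called lower, and the median log2 fold change was -0.54. Without day 3 replicate 1 there was 1 called higher. These genes respond to interferon receptors through IRF factors, which bind repeats of GAAA. Stretches before the start that hold a pair of GAAA blocks separated by 2 bases, on either strand, are shown for 3 of the genes that fell, from RefSeq (GRCm38.p6), with each match in capitals. They lie at chr3:142559979-142560034 (plus strand) for Gbp3, chr2:122147528-122147577 (plus strand) for B2m and chr8:71537567-71537622 (minus strand) for Bst2.
Gbp3: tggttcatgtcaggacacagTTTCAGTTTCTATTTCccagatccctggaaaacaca
B2m: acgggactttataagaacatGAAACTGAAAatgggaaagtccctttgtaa
Bst2: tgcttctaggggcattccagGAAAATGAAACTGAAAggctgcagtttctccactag
In Gbp3 and Bst2 overlapping matches run together, and in Gbp3 they read as TTTC on the strand shown. The motif was added after values were seen. It lay in 2.98% of all promoter windows and before 2.78% of tested genes with a promoter. In the list it lay before 4 of the 11 genes called lower that had a promoter, and also before 2 of 8 that were tested and not called lower. Of the 14 genes called lower under 80% had a promoter in the table, so these counts are not compared. Gbp2, a guanylate-binding protein, was at 10.2, 11.8 and 9.66 CPM at day 3 and 1.22, 1.21 and 1.41 CPM at day 5 (log2 fold change -3.04 ± 0.27, adjusted p = 1.48e-12). Gbp3 was at 8.77, 3.82 and 6.9 CPM at day 3 and 0.203, 0.81 and 1.17 CPM at day 5 (log2 fold change -3.10 ± 0.41, adjusted p = 3.60e-08). Psmb8, a subunit of the immunoproteasome, was at 6.33, 6.11 and 6.9 CPM at day 3 and 0.811, 1.21 and 0.469 CPM at day 5 (log2 fold change -2.88 ± 0.34, adjusted p = 2.90e-09). Each day 5 library of the 3 genes was far below each day 3 library, and reads of near-identical Gbp copies may be shared between them. B2m, the light chain of MHC class I, was at 8.04, 9.55 and 11.5 CPM at day 3 and 3.25, 2.83 and 5.63 CPM at day 5 (log2 fold change -1.34 ± 0.23, adjusted p = 8.38e-06). Bst2, a tethering protein of the cell surface, had a higher level and a smaller change, being at 130.3, 112 and 118 CPM at day 3 and 81.9, 75.7 and 88 CPM at day 5 (log2 fold change -0.55 ± 0.07, adjusted p = 1.37e-08). Usp18, which removes ISG15 from proteins, was at 3.65, 2.48 and 4.14 CPM at day 3 and 0, 0 and 0 CPM at day 5, so it was at least 15.8-fold lower, taking 3 counts over the day 5 libraries as the limit that 0 counts allow. The median of the list is the same with Usp18 at this bound. Some genes of the list had too few counts to be tested. Summed over 3 libraries, Ifih1, an RNA sensor, had 23 counts at day 3 and 1 at day 5, Isg15 16 and 2, Ifit2 25 and 5, Ifit1 2 and 2, and Mx1 1 and 4. Rtp4 and Gbp1, outside the list, fell from 5.26 ± 1.48 to 0.427 ± 0.206 CPM (-3.53) and 7.31 ± 2.56 to 0.437 ± 0.252 CPM (-4.02). Ifitm1 and Ifitm3, interferon-induced membrane proteins that mark early germ cells, stood at higher levels. Ifitm1 was at 223, 240.4 and 213 CPM at day 3 and 147, 134 and 148 CPM at day 5 (log2 fold change -0.66 ± 0.06, adjusted p = 3.79e-13). Ifitm3 fell from 162 ± 13.7 to 111 ± 3.03 CPM (log2 fold change -0.54 ± 0.06, adjusted p = 1.28e-09). B2m and Bst2 were chosen for the text after their values were seen.

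Called imprinted genes were also mostly lower. Of 42 listed genes 29 were tested, 1 was called higher and 11 lower (median -0.14). Meg3, a maternally expressed noncoding RNA, was at 60.6, 66.6 and 73.6 CPM at day 3 and 22.1, 23.9 and 22.3 CPM at day 5 (log2 fold change -1.56 ± 0.09, adjusted p = 1.07e-17), far below EpiLC (1365 to 1656 CPM). Phlda2, a maternally expressed growth regulator, was at 19, 21.4 and 21.6 CPM at day 3 and 4.87, 6.07 and 8.68 CPM at day 5 (log2 fold change -1.68 ± 0.17, adjusted p = 3.19e-11). Plagl1, a paternally expressed zinc finger gene, went from 16 ± 2.88 to 7.63 ± 1.34 CPM (log2 fold change -1.05 ± 0.17, adjusted p = 3.57e-06), and Nnat, paternally expressed, from 5.68 ± 1.47 to 1.74 ± 0.888 CPM (log2 fold change -1.75 ± 0.32, adjusted p = 2.21e-05). Peg10, a paternally expressed gene derived from a retrotransposon and chosen for the text after its values were seen, was at 837, 867 and 971 CPM at day 3 and 531, 577 and 563 CPM at day 5 (log2 fold change -0.68 ± 0.05, adjusted p = 5.16e-16). Both maternally and paternally expressed genes are thus among those that fell, and allele use was not measured. Genes on the X chromosome had a median log2 fold change of -0.06, with 49 higher and 100 lower of 415 tested. Fndc3c1, an X-linked gene, had one of the largest falls of all, at 11, 13.6 and 14.9 CPM at day 3 and 1.22, 0.81 and 1.64 CPM at day 5 (log2 fold change -3.43 ± 0.27, adjusted p = 2.83e-14).

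Genes of cell division were lower and genes of the amino acid response higher. Of 25 mitosis genes, all tested, 18 were called lower and none higher (median -0.29). Top2a, the topoisomerase that untangles chromosomes, was at 1515, 1629 and 1622 CPM at day 3 and 1090.5, 1147 and 1113 CPM at day 5 (log2 fold change -0.51 ± 0.04, adjusted p = 7.75e-14). Aurka, a spindle kinase, was at 172, 176 and 173 CPM at day 3 and 119, 118 and 122 CPM at day 5 (log2 fold change -0.54 ± 0.06, adjusted p = 1.50e-10). Prc1 and Nusap1, proteins of the spindle midzone and spindle, fell by similar amounts (-0.49 ± 0.05 and -0.51 ± 0.06). The changes were alike in size across these 4 genes, and the day 5 libraries lay below all day 3 libraries in each. Of 29 tested genes of DNA replication 2 were higher and 4 lower, 20.7% against 30.9% of all genes. The share was 10.3% without day 3 replicate 2, 13.8% without day 5 replicate 1 and 31% (5 higher, 4 lower) without day 5 replicate 3. Gins2, a replication helicase subunit, rose (log2 fold change 0.36 ± 0.08, adjusted p = 7.68e-04), while Rrm2, which makes deoxynucleotides, fell (log2 fold change -0.26 ± 0.05, adjusted p = 1.39e-05).

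Of 26 tested targets of Atf4, the factor of the amino acid stress response, 17 were called higher and none lower (27 listed, median 0.24). Chac1, which degrades glutathione, was at 3.9, 5.16 and 5.52 CPM at day 3 and 12.2, 8.1 and 10.1 CPM at day 5 (log2 fold change 1.04 ± 0.21, adjusted p = 1.01e-04). Nupr1, a stress-induced chromatin protein, was at 8.77, 10.3 and 8.05 CPM at day 3 and 17.6, 15.8 and 17.1 CPM at day 5 (log2 fold change 0.88 ± 0.15, adjusted p = 1.22e-05). Atf5, a related factor, went from 9.9 ± 1.01 to 15.7 ± 1.37 CPM (log2 fold change 0.65 ± 0.15, adjusted p = 8.09e-04). All 3 were below EpiLC at both days, where Chac1 was at 112 to 126 CPM. Targets of p53 had 8 genes higher and 2 lower of 25 tested (median 0.13). None was lower without day 3 replicate 3 or day 5 replicate 1, nor with DESeq2, and 1 was without day 3 replicate 1 or 2 or day 5 replicate 3. Pmaip1, a BH3-only protein that promotes cell death, was at 41.9, 43.9 and 48.3 CPM at day 3 and 72.8, 70.1 and 65.7 CPM at day 5 (log2 fold change 0.64 ± 0.08, adjusted p = 1.47e-08).

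Energy metabolism showed smaller shifts. The glycolysis list had 7 genes higher and 9 lower of 31 tested (median -0.03). The number lower was 5 without day 5 replicate 1 and 4 with DESeq2, against 7 and 6 higher, so the balance between directions rests on single libraries. Pfkp, a phosphofructokinase, was at 625, 587 and 570.3 CPM at day 3 and 799.8, 821 and 735 CPM at day 5 (log2 fold change 0.40 ± 0.05, adjusted p = 9.31e-10), while Pgk1, an X-linked enzyme of the lower pathway, went from 106 ± 7.59 to 79.6 ± 1.46 CPM (log2 fold change -0.41 ± 0.07, adjusted p = 3.78e-06). Among 23 tested genes of the hypoxia response 7 were higher and 2 lower (median 0.08), the latter being 1 without day 5 replicate 1 and 4 without day 5 replicate 3. Ak4, a mitochondrial adenylate kinase, had the smallest adjusted p of the genes named here, at 442, 394 and 401 CPM at day 3 and 758, 716 and 683 CPM at day 5 (log2 fold change 0.80 ± 0.05, adjusted p = 5.12e-18). Of 43 tested nuclear genes of the respiratory chain 7 were called, all higher (16.3%, median 0.05), and the number was 2 without day 3 replicate 3, with 1 lower, and 2 were lower without day 5 replicate 3. Uqcrq, a subunit of complex III, was at 99.1, 105 and 106 CPM at day 3 and 148, 135 and 153 CPM at day 5 (log2 fold change 0.48 ± 0.06, adjusted p = 2.05e-08). Ribosomal protein genes, with 2 higher and 4 lower of 35 tested, had a median of 0.02, and 2 were lower without day 3 replicate 1 or 2 or day 5 replicate 1 or 2. Of 20 tested genes of the germ cell surface and of migration 5 were higher and 9 lower. Gja1, a gap junction protein, fell from 74.1 ± 2.46 to 50 ± 2.78 CPM (log2 fold change -0.56 ± 0.08, adjusted p = 8.71e-08), and Cd38, a surface enzyme, rose from 5.52 ± 0.562 to 9.71 ± 2.33 CPM (log2 fold change 0.84 ± 0.21, adjusted p = 0.00126). Cxcr4, the receptor that guides migrating germ cells, had 31 counts at day 3 and 24 at day 5 and was not tested. Cholesterol synthesis had 4 genes higher and 3 lower of 23 tested, fatty acid synthesis 3 and 5 of 14, and apoptosis 5 and 3 of 23. For cholesterol synthesis 2 were higher without day 3 replicate 2 or day 5 replicate 1, and 1 was lower without day 3 replicate 2 or day 5 replicate 3. For fatty acid synthesis 1 was higher without day 3 replicate 2, day 5 replicate 1 or day 5 replicate 2, and 3 were lower without day 3 replicate 1 or day 5 replicate 3.

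**Figure D4:**
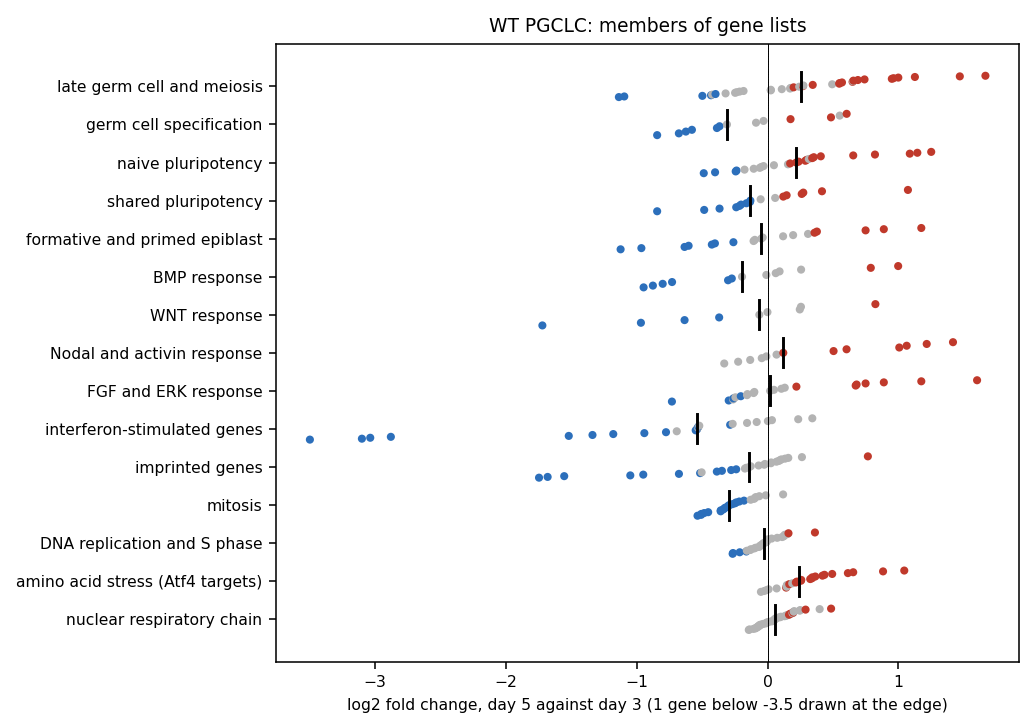
Each row is a gene list and each point 1 tested member, placed by its log2 fold change, day 5 against day 3, in WT PGCLC. Red members were called higher, blue lower and grey neither, black bars mark medians, and the height of a point within a row only separates points. The edge holds 1 member, Usp18, whose fitted value is no bound because it had no counts at day 5. Medians of the lists drawn run from -0.54 for interferon-stimulated genes to 0.26 for late germ cell genes.

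The genes named for the size of their rise did not come from any one list. Smyd1, a muscle-linked histone methyltransferase, was at 3.9, 3.82 and 4.14 CPM at day 3 and 18.7, 16.8 and 17.4 CPM at day 5 (log2 fold change 2.15 ± 0.18, adjusted p = 4.32e-13). Gpr124, an adhesion receptor that aids WNT7 signalling, was at 3.17, 5.16 and 2.53 CPM at day 3 and 15.6, 16.8 and 16 CPM at day 5 (log2 fold change 2.11 ± 0.20, adjusted p = 9.72e-12). Pramel7 and Pramel6, members of a multicopy family active in the preimplantation embryo, went from 2.12 ± 0.899 to 10.7 ± 3.05 CPM (2.34) and from 2.55 ± 0.217 to 8.77 ± 2.78 CPM (1.79), with reads possibly shared between copies. Gata6, a factor of primitive endoderm, was at 1.46, 0.764 and 1.15 CPM at day 3 and 5.27, 5.26 and 6.57 CPM at day 5 (log2 fold change 2.34 ± 0.33, adjusted p = 2.10e-07). Further rises of at least 3-fold were those of Zan (2.19), Tnnt3 (2.05), Zbtb7c (2.03), Ak7 (1.98), Saa3 (1.92), Ddr2 (1.77), Nlrp4a (1.74) and Rapgef3 (1.69). Among the falls outside the interferon list, Tagln, an actin-binding protein of smooth muscle, was at 10.7, 13 and 12.6 CPM at day 3 and 1.22, 2.23 and 3.76 CPM at day 5 (log2 fold change -2.37 ± 0.24, adjusted p = 9.01e-11). Car4, a carbonic anhydrase, was at 23.9, 31.7 and 31.5 CPM at day 3 and 6.69, 7.9 and 8.68 CPM at day 5 (log2 fold change -1.92 ± 0.15, adjusted p = 1.80e-14). Rasgrp1, an activator of Ras, was at 18.3, 17.6 and 15.9 CPM at day 3 and 5.07, 4.25 and 2.11 CPM at day 5 (log2 fold change -2.14 ± 0.20, adjusted p = 4.31e-12). Cachd1 (-2.16), Zfp608 (-2.46), Ifi27l1 (-2.89) and Ddx60 (-2.11) fell further than Car4. Lying outside the list does not mean that a gene, such as Ifi27l1 or Ddx60, is not induced by interferon. All genes of this paragraph were without overlap between days, as the rule for naming them required.

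Markers of other cell types were followed as summed levels, and their part in these results was not tested. The summed level of the gastrulation mesoderm list was 27.5 to 30.1 CPM at day 3 and 37.7 to 47.4 CPM at day 5. Of 3 tested genes of this list 2 were called higher and none lower (1 higher with DESeq2). These were Hand1, given above, and Eomes, a T-box factor, which rose from 12.1 ± 1.3 to 17.3 ± 2.41 CPM (log2 fold change 0.50 ± 0.15, adjusted p = 0.00661). T (brachyury), another T-box factor of the list, had 3 counts at day 3 and 1 at day 5 over 3 libraries. Endoderm genes summed to 454 to 506 and 494 to 523 CPM, ranges that overlap, with 4 higher and 4 lower of 9 tested (2 lower without day 5 replicate 1). Col4a1 and Col4a2, neighbouring collagen genes of basement membranes, rose with Gata6 (0.77 ± 0.11 and 0.65 ± 0.15), Dab2, an endocytic adaptor of the endoderm, fell (-1.43 ± 0.29), and Sox17 had 4 and 12 counts. Neural ectoderm genes summed to 133 to 141 CPM at day 3 and 145 to 166 CPM at day 5, with 2 higher and 1 lower of 6 tested, and Sox1 had 2 and 21 counts. The number higher was 1 without any 1 library other than day 5 replicate 3. Blood and endothelial genes summed to 245 to 276 and 319 to 344 CPM, with 1 higher and 1 lower of 5 tested. Pecam1, which germ cells also express, rose from 226 ± 14.8 to 299 ± 13.3 CPM (log2 fold change 0.41 ± 0.05, adjusted p = 2.13e-08), and Flt1, a VEGF receptor, fell from 14 ± 1.0 to 7.07 ± 1.2 CPM (log2 fold change -1.0 ± 0.17, adjusted p = 9.55e-06). Summed levels of trophoblast genes (145 to 187 and 116 to 168 CPM) and mesenchyme genes (1195 to 1288 and 1211 to 1282 CPM) overlapped between days. Of 10 tested genes of the trophoblast and amnion list 2 were called higher and 5 lower (70%, median -0.39). The number lower was 2 without day 3 replicate 2 or 3, and 1 without day 5 replicate 1 or with DESeq2. The mesenchyme list had 2 genes higher and 1 lower of 7 tested (median -0.01). Tagln, given above, was the gene that fell. Vim, an intermediate filament, rose from 33.1 ± 2.62 to 55.9 ± 4.53 CPM (log2 fold change 0.76 ± 0.09, adjusted p = 3.63e-09), and Zeb1, a repressor of epithelial genes, from 6.3 ± 1.17 to 15.6 ± 1.16 CPM (log2 fold change 1.33 ± 0.17, adjusted p = 3.60e-08). Of the genes that respond to cell dissociation 8 were higher and 4 lower of 20 tested. Jun, an immediate early gene, went from 39.6 ± 1.46 to 20.2 ± 1.84 CPM (log2 fold change -0.98 ± 0.10, adjusted p = 2.52e-10), and Klf6 from 103 ± 5.55 to 59.9 ± 2.98 CPM (log2 fold change -0.79 ± 0.07, adjusted p = 1.90e-12). Egr1, also an immediate early gene, rose from 43.7 ± 3.08 to 70.3 ± 9.89 CPM (log2 fold change 0.68 ± 0.09, adjusted p = 3.47e-08). Egr1 did not pass in the edgeR fit of the 9 WT libraries (log2 fold change 0.68, adjusted p = 0.13). Ier3 of the same list was higher too (0.67 ± 0.11).

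The same step was available in 3 Esrrb KO lines, named A5, B1 and A2, sorted by the same gate. Esrrb itself had 359 to 745 counts in the KO libraries at day 3 and 600 to 933 at day 5, against 2596 to 3125 and 2434 to 2987 in WT. The KO lines were sequenced as 1 library per line and day, and in a fit of these 12 libraries 176 genes were called for the KO step. Of the 3678 genes called in WT, 79.9% changed with the same sign in KO, against 60.6% of the 8242 genes not called in WT that were tested in both fits. Across the called genes, which are not independent replicates, the fold changes of both genotypes had a Pearson r of 0.65. Dazl rose in both genotypes, by 1.42 ± 0.27 in KO. The difference between the steps was tested directly, and 5 of 12380 genes passed (0.0404%), 805 having an unadjusted p under 0.05. KO line names pair libraries, and with a block for replicate names 231 genes passed. Genes described above for WT alone are among them, such as Aebp2 (difference -0.51, edgeR adjusted p = 0.0113) and Car4 (difference 0.92, edgeR adjusted p = 0.0324). The 5 genes are thus those of the fit without a block and not all genes whose step may differ.

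All 5 genes that passed without the block were called in WT. Sall1, a zinc finger factor of pluripotent cells, fell in WT (-1.05 ± 0.06). Without TMM adjustment it was at 168, 178 and 161 CPM at day 3 and 84.7, 89.2 and 74.1 CPM at day 5 in WT. On the same scale the KO lines were at 143, 101 and 83.9 CPM at day 3 and 146, 139.6 and 145 CPM at day 5 (difference 1.41 ± 0.21, adjusted p = 0.0433). Nfatc4, a calcium-regulated factor, fell in WT from 66.7 ± 5.01 to 27.2 ± 2.38 CPM while its change in KO was 0.03 ± 0.12 (difference 1.33 ± 0.17, adjusted p = 0.0227). Ifitm1 fell in WT, without TMM adjustment from 221, 238 and 211 to 148, 134 and 148 CPM. On that scale it was at 288, 228 and 281 CPM at day 3 and 329, 333 and 378 CPM at day 5 in KO (difference 1.01 ± 0.14, adjusted p = 0.0397). Vcan, a matrix proteoglycan, fell in WT (-0.76 ± 0.11) and rose in KO (1.46 ± 0.25, difference 2.22 ± 0.34, adjusted p = 0.0433). Acaa2, an enzyme of fatty acid oxidation, rose in WT from 73.6 ± 7.46 to 119 ± 1.42 CPM while its change in KO was -0.41 ± 0.11 (difference -1.10 ± 0.14, adjusted p = 0.0227). The 5 genes were picked by a test on these same 12 libraries. Their levels in KO and WT therefore describe them and are no further support for a difference. Without TMM adjustment, day 3 levels in KO and WT were 27 to 29.4 and 65.8 to 80.5 CPM for Acaa2. They were 70.6 to 87.6 and 60.2 to 69.1 CPM for Nfatc4, and 7.92 to 11.1 and 28.2 to 33.3 CPM for Vcan. At day 5 Vcan was at 18 to 36.6 CPM in KO and 16.3 to 20.7 CPM in WT. Leaving out 1 library gave 0 to 9 calls. The count was 0 without day 3 WT replicate 2 or 3, without KO B1 at day 3, and without any of the 3 WT libraries of day 5, and was 2 when chromosome 8 was left out.

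**Figure D5:**
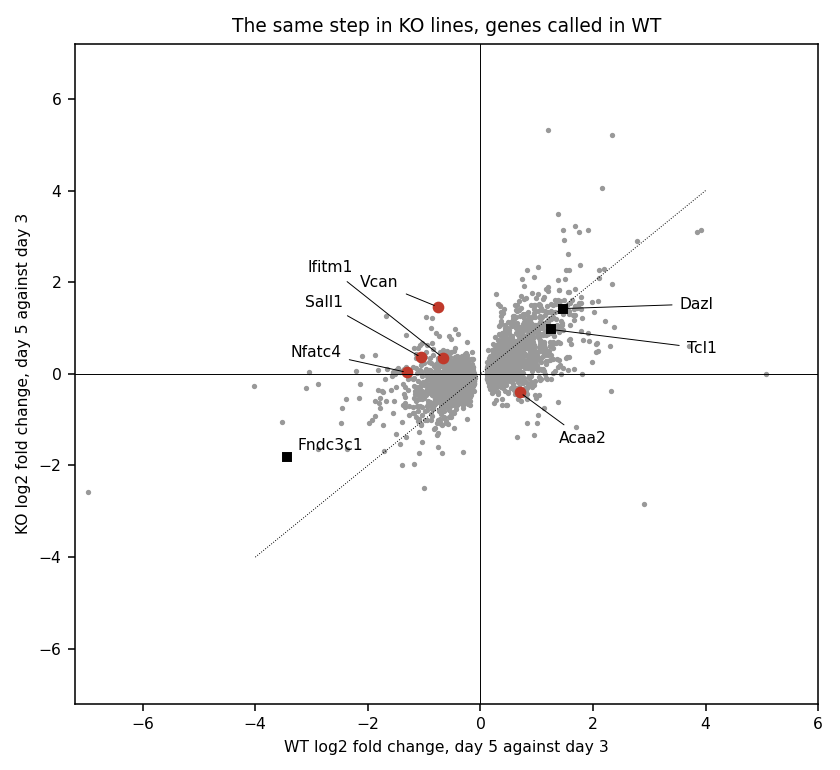
Each point is 1 gene called in WT. The horizontal axis is its log2 fold change, day 5 against day 3, in WT and the vertical axis the same in the KO lines, both from edgeR fits, and the dotted line marks equality. Most points (79.9%) have the same sign on both axes, as Dazl, Tcl1 and Fndc3c1 do (black squares). The 5 genes that passed the test of the difference between steps without a replicate block (red) lie away from the line.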

How the data were processed

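Polyadenylated RNA of sorted WT PGCLC was read from the raw counts per Ensembl gene that the authors deposited for each library. The authors also deposited CPM for the whole series, which matched the counts over their column sum within 1e-06. Trimming was by Trim Galore 0.4.3.1 and the genome mm10 (also GRCm38.p4), per the submitters' processing notes. The strand setting, aligner, counter and annotation were not given in the sources used here. Antisense pairs and near-identical families (Ifitm, Rhox, Gbp, Pramel) are therefore uncertain. The 56 rows of 25965 without a gene ID (0.0732% to 0.0828% of counts) were left out. Positions are from GENCODE M21 (GRCm38) and promoter sequences from RefSeq (GRCm38.p6).

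Counts were fitted in R 4.3.3 with edgeR 4.0.16 on the 6 libraries alone: filterByExpr, TMM (factors 0.991 to 1.01), robust quasi-likelihood with a mean per day (common dispersion 0.00119) and Benjamini-Hochberg adjustment. The KO step and its difference from the WT step came from a fit of the 12 PGCLC libraries. Floors of 3 counts cover counting error only. Named genes are the 14 highest and 14 lowest called changes among genes without overlap that reach 5 CPM on 1 day (without predicted models), the largest called changes of each list (up to 4), and 32 fixed genes. A further 18 genes and the paired GAAA motif were added after values were seen. Some named genes are not reported here. The members, comparison and 39 gene lists were chosen with earlier results of these data known. The search covered 5 motifs, of which only CACGTG and the paired GAAA motif are reported.

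Replicate names were checked by correlating deviations from the group mean between days. KO line names, which mark the same line, pair libraries (0.352 to 0.61), and WT numbers fell short of the threshold over all genes (-0.01 to 0.08). On simulated data with the same common dispersion for every gene (11918 genes tested), the fit called 0.0768% of unchanged genes. This share does not measure false calls in the real libraries. Alternatives were RLE size factors, no low-count filter, DESeq2 1.42.0, limma-trend (limma 3.58.1) on log2 of the deposited CPM plus 1, leaving out each library, a replicate block, leaving out chromosome 8, and fits of 9 WT or all 18 libraries.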

Additional observations from a re-analysis of the deposited data

Results flagged for a closer look

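The difference between the KO and the WT step from day 3 to day 5 was tested with edgeR in 12 libraries. Without a replicate block 5 genes of 12380 passed, and 231 passed with a block for replicate names. The 5 are given here. The KO step minus the WT step was -1.10 for Acaa2, 1.01 for Ifitm1, 1.33 for Nfatc4, 1.41 for Sall1 and 2.22 for Vcan, on the log2 scale. Each was singled out because its change differed between genotypes in the test without a block.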

How the results depend on the processing

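Against 3678 calls (1804 higher, 1874 lower), DESeq2 made 2121 (1017 and 1104), the fit of all 18 libraries 99 (37 and 62), and asking for a change of at least 1 on the log2 scale left 362 (232 and 130). Leaving out 1 library gave 2853 to 3601 calls (1378 to 1770 higher, 1475 to 1831 lower). RLE size factors, no filter, limma-trend, no chromosome 8 and the 9 WT libraries gave 3535 to 3824. Of these, limma-trend called more genes higher (2028) than lower (1624), and the others called more lower than higher, as the given fit did. No gene called in both the given fit and an alternative changed sign. Over all lists 310 distinct members were called, 7 with all 18 libraries, and 259 to 316 without 1 library. Over all genes the WT numbers fell short of the threshold for pairing, and with a replicate block 3894 genes were called. For the difference between the KO and WT steps, whose KO names do pair, the block gave 231 calls against 5, DESeq2 29, no chromosome 8 2, and leaving out 1 library 0 to 9. Of 185 called named genes 14 passed under each of the 14 alternatives, 147 under all but the fit of 18 libraries, 153 whenever 1 library was left out, and none reversed. The causes were not tested. Depth limits genes near 0 counts, such as Usp18 and Isg15.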

Other observations

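The 4 genes below were picked because they were higher at day 5, and stand for no gene group. Bhmt, which passes a methyl group from betaine to homocysteine, was at 0.731, 0 and 0 CPM at day 3 and at 4.26, 2.83 and 3.99 CPM at day 5. With 3 counts over the day 3 group its ratio was 16.8, with a 95% counting interval of 5.44 to 84.1. Dmgdh, which acts on the dimethylglycine that Bhmt forms and like it lies on chromosome 13, went from 1.6 ± 0.13 to 5.18 ± 1.03 CPM. Its log2 fold change was 1.67 ± 0.31 (edgeR adjusted p = 3.16e-05). Cbs and Cth, the enzymes that turn homocysteine into cysteine, were also higher. Cbs went from 27.3 ± 1.73 to 46.0 ± 3.14 CPM (log2 fold change 0.76 ± 0.10, edgeR adjusted p = 1.96e-08). Cth went from 18.5 ± 2.31 to 39.0 ± 4.33 CPM (log2 fold change 1.10 ± 0.11, edgeR adjusted p = 1.06e-10). The days did not overlap for any of these 4 genes.

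On chromosome 8 the median deviation of genes from their day's mean went with the WT replicate number on both days. It was 0.05 at day 3 and 0.05 at day 5 for replicate 2, and -0.04 on both days for replicate 3, on the log2 scale. On chromosome 11 it was smaller, at 0.02 on both days for replicate 1 and -0.01 on both days for replicate 3. Chromosome 13 did not keep such an order, with replicate 3 at 0.01 at day 3 and -0.02 at day 5. The cause was not tested.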
